A study of Homo sapiens with 14 samples.

Results

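Eph receptors and their ephrin ligands were followed in cultured colorectal cancer cells through 10 genes, the receptors EPHA1, EPHA2, EPHA4, EPHB2, EPHB3 and EPHB4 and the ligands EFNA1, EFNA4, EFNB1 and EFNB2. They were taken by gene symbol from the 36601 genes of the single-cell tables and are 10 of the 22 Eph and ephrin genes listed there. The 10 genes were chosen by their single-cell and bulk levels in these same libraries, so their levels over days, lines and colony position are given below as a description with no test. No numeric threshold came with that choice, so no values just inside or outside a threshold can be given. Tests are given only for contrasts inside each single-cell library and for genes that are not among the 10.

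SW620 is a line from a lymph node metastasis of a colorectal tumor, and SW480 is a line from a primary colorectal tumor. The study states that both lines come from the same patient. SW620-TET2CD is SW620 with overexpressed catalytic domain of TET2, the enzyme that oxidises 5-methylcytosine, and the SW620 single-cell libraries came from cells that the study describes as carrying the empty FLAG vector. For the bulk SW620 libraries it names no vector. No source used here says how many clones make up SW620-TET2CD. SW620 and SW620-TET2CD were grown as colonies for up to 15 days without passage, and 1 single-cell library was made for each line at days 6, 9, 12 and 15. Bulk RNA was sequenced in 6 libraries, from SW480 and SW620 at day 6 and from cells inside and outside the colonies at day 15 in SW620 and in SW620-TET2CD. Outside cells were those that passed a cell strainer after a short digestion, and inside cells were the colony spheres that stayed on it. Every condition had 1 library, nothing says that libraries came from separate cultures, and the spread between days therefore stands in for replicate error.

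The 8 single-cell libraries held 3894 to 8154 kept cells and 48186195 to 74185723 kept unique molecular identifiers (UMIs), which count captured RNA molecules, and the bulk libraries held 16470176 to 25840563 expected counts. Single-cell levels are counts scaled to the library total of UMIs (CPM) and summed over the cells of a library, with exact 95% Poisson intervals that cover counting error only. Of 47985 barcode sequences, 297 were seen in more than 1 library. TET2 stood at 2.11 to 3.90 CPM in the SW620 libraries and 40.2 to 107 CPM in the SW620-TET2CD libraries, so the labels of the lines were met. Of 10 colon epithelium markers, 7 reached 1 CPM in every library and EPCAM stood at 496 to 639 CPM, whereas the differentiation markers KRT20, CDX1 and LGALS4 were at or near 0, none above 1.75 CPM. The summed level of 10 markers of immune, endothelial and stromal cells was 18.7 to 31.1 CPM at the early days and 17.2 to 48.1 CPM at the late days, with PTPRC at or near 0 and CD68 at up to 36.9 CPM in SW620 at day 15, and the part of that change in the results was not tested.

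Eph receptors are receptor tyrosine kinases that are switched on when a cell touches a neighbor that carries an ephrin. A-type receptors mainly bind A-type ephrins, which are tied to the membrane by a lipid anchor, and B-type receptors mainly bind B-type ephrins, which span the membrane and can signal backwards into their own cell. EPHA4 binds ligands of both types. In the intestinal crypt EPHB2 and EPHB3 are transcribed under beta-catenin and TCF control and are high at the crypt base, whereas EFNB1 and EFNB2 rise toward the surface, and this opposed arrangement keeps the cell layers sorted. EPHA2 is an epithelial receptor that is often high in tumors, EFNA1 is its main ligand, and EPHB4 is best known as the receptor of EFNB2 in blood vessels.

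The promoters of 4 receptors are shown because EPHB2 and EPHB3 moved together in one set of contrasts inside the libraries and EPHA2 and EPHA4 in another. Each sequence is the sense strand 5′ to 3′ in 300 bases around the RefSeq start of the gene on GRCh38.p14, and capitals mark a match to 1 of 4 motifs searched on both strands. All 10 genes matched the RefSeq promoter table, in 12 entries. The EPHA2 window lies at chr1:16156020-16156319 on the minus strand, the EPHA4 window (the second of its entries) at chr2:221572255-221572554 on the minus strand, the EPHB2 window (the first of its entries) at chr1:22710588-22710887 on the plus strand and the EPHB3 window at chr3:184561535-184561834 on the plus strand.
EPHA2: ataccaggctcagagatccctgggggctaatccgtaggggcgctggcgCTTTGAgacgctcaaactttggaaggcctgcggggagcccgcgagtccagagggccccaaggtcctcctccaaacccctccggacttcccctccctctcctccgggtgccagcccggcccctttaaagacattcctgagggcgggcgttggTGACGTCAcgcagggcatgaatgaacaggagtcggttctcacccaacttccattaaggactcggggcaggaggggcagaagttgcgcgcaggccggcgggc
EPHA4: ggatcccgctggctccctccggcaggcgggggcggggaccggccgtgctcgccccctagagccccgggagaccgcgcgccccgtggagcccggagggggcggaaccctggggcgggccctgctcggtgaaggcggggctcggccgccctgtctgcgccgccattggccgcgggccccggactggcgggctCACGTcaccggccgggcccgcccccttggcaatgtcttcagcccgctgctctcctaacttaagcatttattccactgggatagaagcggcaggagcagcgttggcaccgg
EPHB2: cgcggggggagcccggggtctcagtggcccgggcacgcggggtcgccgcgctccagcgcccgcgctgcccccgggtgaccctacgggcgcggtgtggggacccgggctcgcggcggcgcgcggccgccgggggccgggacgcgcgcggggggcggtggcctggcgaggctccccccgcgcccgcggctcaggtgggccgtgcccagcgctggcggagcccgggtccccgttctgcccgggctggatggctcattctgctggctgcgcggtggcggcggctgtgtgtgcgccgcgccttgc
EPHB3: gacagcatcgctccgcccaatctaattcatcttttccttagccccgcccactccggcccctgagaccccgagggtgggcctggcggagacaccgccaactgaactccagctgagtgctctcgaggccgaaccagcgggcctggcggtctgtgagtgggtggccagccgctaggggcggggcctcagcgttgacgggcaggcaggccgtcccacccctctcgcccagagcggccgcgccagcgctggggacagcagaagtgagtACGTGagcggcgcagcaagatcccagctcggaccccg

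Counted from the start site, the EPHA2 window held the TCF/LEF core CTTTGA at -202 to -197 and the cyclic AMP response element TGACGTCA at -51 to -44. The EPHA4 window held the hypoxia response core ACGTG on the other strand at -60 to -56, and the EPHB3 window held it at 14 to 18. None of the 10 genes held the AP-1 motif TGANTCA, and the EPHB2 windows held none of the 4 motifs. The share of all 35116 promoter windows with a match was 21.4% for ACGTG, 12.9% for CTTTGA, 7.71% for TGANTCA and 1.85% for TGACGTCA. No motif overlapped another in these windows, and a match or its absence says nothing here of a factor binding.

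Levels between genes can be compared per transcript length in the bulk libraries, as TPM, a share of transcripts corrected for length. In SW620 at day 6, EFNB2 was the most abundant of the 22 family genes at 130 TPM, followed by the kinase-inactive receptor EPHB6, which is not among the 10, at 95.01 TPM, EPHB2 at 88.9 TPM and EPHA2 at 77.3 TPM. EPHB3 came next at 24.4 TPM, then EFNA1 at 17.4 TPM and EFNB1 at 14.4 TPM. EPHA1 stood at 7.90 TPM, and EPHB4 at 2.68 TPM, EFNA4 at 1.62 TPM and EPHA4 at 1.42 TPM were low. With 1 library per condition, neighbors in this order have no spread to be told apart by.

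SW480 at day 6 had another set of receptors and ligands. EFNB1 led in SW480 at 171 TPM, 11.8-fold above SW620, and EFNB2 stood at 3.28 TPM against 130 TPM in SW620, a fall by 4.94 on the log2(TPM + 1) scale. EPHA4 at 21.0 TPM was 14.8-fold, EPHB4 at 43.3 TPM 16.2-fold and EFNA4 at 15.7 TPM 9.72-fold above SW620. EPHB2 stood at 13.2 TPM and EPHB3 at 9.00 TPM, both below their levels in SW620. The leading B-type ligand therefore differed between the lines, EFNB1 in SW480 and EFNB2 in SW620, whereas EPHB6 was the highest B-type receptor in both, at 46.3 TPM in SW480 just above EPHB4 and at 95.01 TPM in SW620 just above EPHB2. Summed over all 22 genes by class, A-type receptors reached 128 TPM, B-type receptors 112 TPM and B-type ephrins 184 TPM in SW480, against 89.0, 211 and 146 TPM in SW620. Of the 10 genes, 7 were at least 2-fold apart between the lines on the log2(TPM + 1) scale, where 27.6% of genes with at least 1 TPM were, and nothing is read from this count. EPHA2 (97.8 and 77.3 TPM) and EFNA1 (14.4 and 17.4 TPM) were close in the lines.

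**Figure D1:**
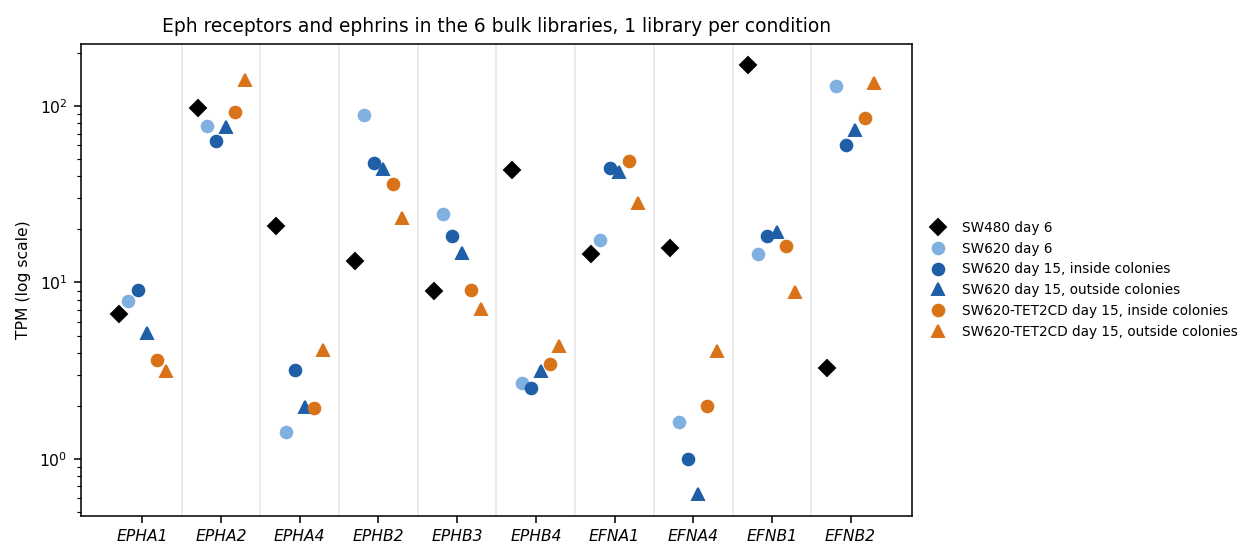
Level of each of the 10 genes in the 6 bulk libraries, in TPM on a log axis, 1 point per library and no error bars because each condition had 1 library. EFNB1, EPHB4, EFNA4 and EPHA4 stand far higher in SW480 than in any SW620 library, and EFNB2 stands far lower.

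Over the 15 days of colony culture EPHB2 and EPHB3 ended lower than they began, and EPHA2, EPHA4 and EFNA1 ended higher. EPHB2 read 64.2, 85.1, 42.7 and 21.9 CPM in SW620 at days 6, 9, 12 and 15, and 63.8, 81.2, 60.4 and 35.5 CPM in SW620-TET2CD. In both lines its highest level was at day 9 and both late days (12 and 15) lay below both early days (6 and 9). EPHB3, the other crypt receptor, read 12.5, 17.7, 12.6 and 8.002 CPM in SW620 and 9.49, 13.6, 10.9 and 8.43 CPM in SW620-TET2CD, with the same peak at day 9 and with early and late days overlapping. From day 6 to day 15, EPHB2 was 2.93-fold lower in SW620 and 1.80-fold lower in SW620-TET2CD, and EPHB3 was 1.56-fold and 1.13-fold lower. EPHB4 stayed between 0.741 CPM (95% interval 0.559 to 0.965) and 1.29 CPM (1.00 to 1.65), and its few UMIs show no order of days.

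EPHA4 had the steepest course of the 10. It read 3.18, 5.48, 18.2 and 30.6 CPM in SW620 and 1.16, 1.96, 5.001 and 11.9 CPM in SW620-TET2CD, higher at each day than at the one before in both lines. Its level at day 15 was 9.62-fold that at day 6 in SW620 and 10.2-fold in SW620-TET2CD. EPHA2 dipped at day 9 and then climbed, with 31.4, 15.3, 37.0 and 63.7 CPM in SW620 and 30.9, 20.4, 32.0 and 54.0 CPM in SW620-TET2CD. Its late days lay above its early days in both lines, though by little between day 6 and day 12. EPHA1, a receptor of epithelial cells, stayed between 1.03 and 2.74 CPM.

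Among the ligands, EFNA1 and EFNB1 were higher late and EFNB2 was lower. EFNA1 stepped up between day 9 and day 12, with 6.98, 9.30, 38.9 and 37.2 CPM in SW620 and 4.02, 7.76, 26.4 and 33.1 CPM in SW620-TET2CD, which is 5.33-fold and 8.25-fold from day 6 to day 15. EFNB1 read 9.42, 8.47, 14.2 and 22.4 CPM in SW620 and 7.59, 6.41, 8.28 and 15.1 CPM in SW620-TET2CD. EFNB2 read 150, 135, 79.7 and 104 CPM in SW620 and 175, 156, 115 and 121 CPM in SW620-TET2CD, so its lowest level was at day 12 and not at day 15. EFNA4 stayed between 1.29 and 3.88 CPM with no order of days shared by the lines.

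**Figure D2:**
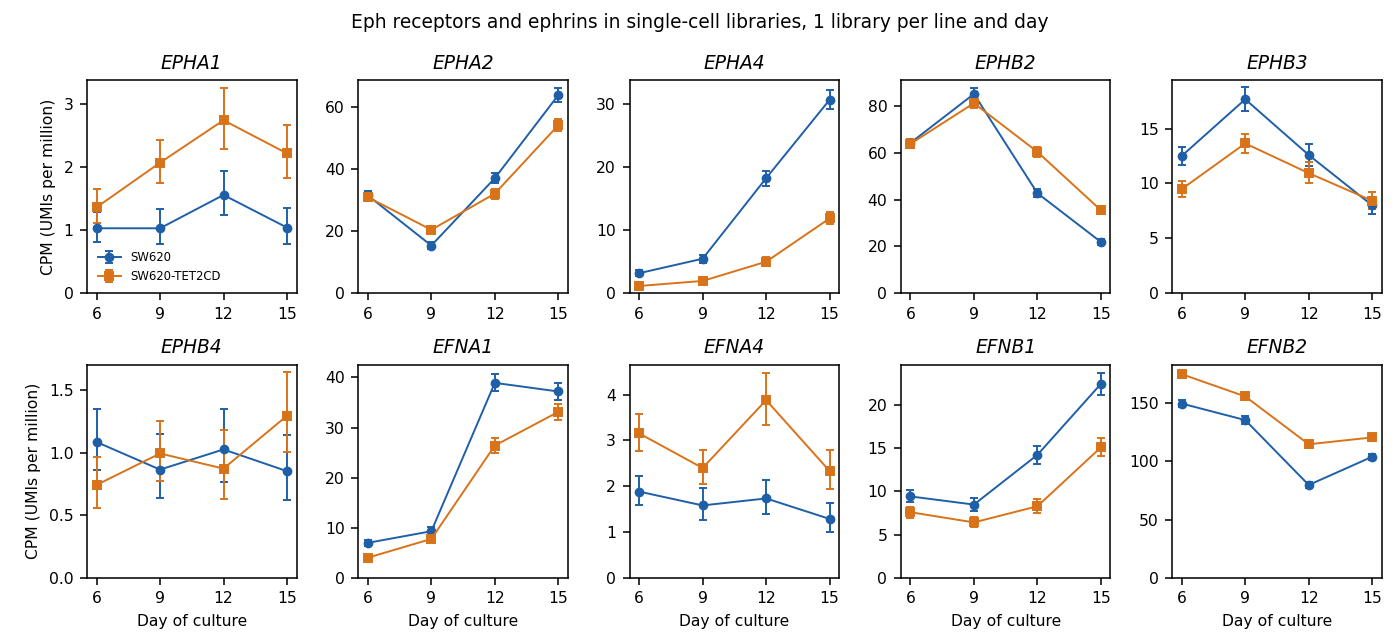
Level of each of the 10 genes at days 6, 9, 12 and 15 in the SW620 and SW620-TET2CD single-cell libraries, in CPM of summed UMIs with exact 95% Poisson intervals for counting error. EPHA4 climbs over the days and EFNA1 steps up between days 9 and 12 in both lines, EPHB2 peaks at day 9 and ends at its lowest level, and the SW620 points for EPHA4 lie above the SW620-TET2CD points at each day.

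In the fit across all genes with the line as a covariate (edgeR), the log2 change from early to late days was 2.37 (SE 0.31) for EPHA4, 2.18 (SE 0.19) for EFNA1, 0.82 (SE 0.29) for EPHA2 and 0.79 (SE 0.22) for EFNB1. It was -1.01 (SE 0.24) for EPHB2, -0.66 (SE 0.13) for EFNB2 and -0.51 (SE 0.18) for EPHB3. The values for EPHA1 (0.33, SE 0.21), EPHB4 (0.02, SE 0.22) and EFNA4 (-0.12, SE 0.22) lay near 0. The median change was 0.18 over the 10 and 0.04 over all 16526 genes fitted. Both late days lay above both early days in each line for EPHA1, EPHA2, EPHA4, EFNA1 and EFNB1, 5 of 10 against 34.7% of all genes, and below for EPHB2 and EFNB2, 2 of 10 against 26.0%. These counts rest on values used to choose the genes and nothing is read from them. Across the same step the summed level of 16 cell cycle genes went from 2602 to 2895 CPM down to 399 to 770 CPM and that of 15 hypoxia response genes from 258 to 444 CPM up to 1500 to 1609 CPM, and the part of either in the courses above was not tested.

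In the single-cell libraries the lines differed most in EPHA4, whereas in bulk at day 15 its order of the lines depended on the position. SW620 exceeded SW620-TET2CD 2.75-fold at day 6, 2.80-fold at day 9, 3.64-fold at day 12 and 2.58-fold at day 15, so the late climb of EPHA4 in SW620-TET2CD ended at 11.9 CPM where SW620 had already passed 18.2 CPM at day 12. Its fitted log2 difference with the day as a block was -1.66 (SE 0.11). EFNA1 (-0.54, SE 0.10) and EFNB1 (-0.62, SE 0.11) were also lower in SW620-TET2CD at each of the 4 days. EPHA1 (0.72, SE 0.16) and EFNA4 (0.74, SE 0.15) were higher at each day, on low levels of at most 2.74 and 3.88 CPM, but in bulk at day 15 EPHA1 was lower in SW620-TET2CD in both positions. EFNB2 was higher at each day by a smaller margin, 0.19 (SE 0.11), and EPHB2 was level at days 6 and 9 and 1.41-fold and 1.62-fold higher in SW620-TET2CD at days 12 and 15, whereas in bulk at day 15 it was lower in SW620-TET2CD in both positions. Values for EPHB3 (-0.33, SE 0.09), EPHA2 (-0.12, SE 0.12) and EPHB4 (-0.10, SE 0.20) changed sides between days.

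By count, SW620-TET2CD lay above SW620 on all 4 days for 3 of the 10 genes (20.1% of all genes tested) and below for 3 (5.78%). The choice of the genes used these levels, so nothing is read from the counts. Each line had 1 library per day, so the line and the libraries cannot be told apart.

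Bulk libraries of SW620 gave a second view of day 6 against day 15, and they matched the single-cell libraries in part. EFNA1 stood at 17.4 TPM at day 6, 44.7 TPM inside and 42.1 TPM outside the colonies at day 15. EPHB2 stood at 88.9 TPM at day 6 and at 47.8 and 43.8 TPM, EPHB3 at 24.4 TPM and then 18.3 and 14.7 TPM, and EFNB2 at 130 TPM and then 60.3 and 73.3 TPM. These 4 genes had the same direction in both assays. EFNB1 was also higher at day 15 in both, 1.26-fold inside and 1.33-fold outside in bulk against 2.38-fold in the single-cell libraries of SW620. EFNA4 was lower in both, on low levels. EPHA4 was 1.42 TPM at day 6 and 3.20 and 1.97 TPM at day 15, and 2.06, 5.31 and 6.33 CPM of expected counts, so which position held more of it depended on the unit. The steps of EFNA1, EPHB2 and EPHA4 were smaller than in the single-cell libraries of SW620. The fall of EFNB2 was larger, 2.16-fold inside and 1.78-fold outside against 1.44-fold. EPHB3 fell 1.33-fold inside and 1.65-fold outside against 1.56-fold. EPHA2, which was 2.03-fold higher at day 15 than at day 6 in those single-cell libraries, stood at 77.3 TPM at day 6 and at 63.1 and 76.7 TPM at day 15. In bulk RNA fewer cells of a type and less RNA per cell cannot be told apart. At 2-fold, 1 gene was higher and 1 lower inside than at day 6 (5.56% and 5.96% of genes, 11.5% in all), and 1 higher and 1 lower outside (4.41% and 5.56%, 9.97% in all).

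At day 15 EPHB2 and EPHB3 on the one hand and EPHA2 and EFNB2 on the other differed in opposite directions between the positions in the culture. Outside cells were lower than inside cells in EPHB2, at 43.8 against 47.8 TPM in SW620 and 23.1 against 36.3 TPM in SW620-TET2CD. EPHB3 was also lower outside, at 14.7 against 18.3 TPM and 7.11 against 9.07 TPM. EPHA2 was higher outside, at 76.7 against 63.1 TPM and 140 against 92.3 TPM, and so was EFNB2, at 73.3 against 60.3 TPM and 135 against 85.8 TPM. In both genes the step was larger in SW620-TET2CD, 1.52-fold for EPHA2 and 1.57-fold for EFNB2, than in SW620, 1.21-fold and 1.22-fold, and the difference between the lines was not tested. By class, the outside cells of SW620-TET2CD had the highest A-type receptor sum of the 6 libraries, 149 TPM, and the lowest B-type receptor sum, 62.5 TPM.

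The fit of outside over inside had the line as a block and 1 residual degree of freedom. Its SE draws on other genes and is not the spread between the lines. The fitted log2 difference was 0.79 (SE 0.32) for EPHA4, 0.42 (SE 0.10) for EPHA2, 0.42 (SE 0.11) for EFNB2, -0.41 (SE 0.16) for EPHB2 and -0.39 (SE 0.13) for EPHB3. Leaving out 1 library in turn, in a fit without the line, moved these values to between 0.41 and 1.14 for EPHA4, -0.014 and 0.79 for EPHA2, 0.016 and 0.76 for EFNB2, -0.88 and 0.022 for EPHB2 and -1.003 and 0.12 for EPHB3. One side then held a single library, assumed to vary like the others, and the lines and the positions were not balanced. The sign turned without the outside library of SW620-TET2CD for EPHA2 (-0.014), EPHB2 (0.022) and EPHB3 (0.089), and without the inside library of SW620 for EPHB3 (0.12). No gene passed an adjusted p of 0.05 in this fit (0% of 17722 genes with edgeR, smallest adjusted p 0.278), with 1068 genes under an unadjusted p of 0.05 and 22 genes past the threshold in DESeq2. In TPM, outside lay above inside in both lines for 3 of the 10, EPHA2, EPHB4 and EFNB2 (28.6% of all genes), and below for 4, EPHA1, EPHB2, EPHB3 and EFNA1 (24.3%). In CPM of expected counts, which are not divided by transcript length, EPHA4 was also above in both lines, at 6.33 outside against 5.31 inside in SW620 and 10.95 against 4.33 in SW620-TET2CD, and the other 9 kept their sides. None of the 10 differed 2-fold between positions in SW620 (3.28% of genes) or in SW620-TET2CD (7.67%) on the log2(TPM + 1) scale. With a pseudocount of 0.1, EPHA4 (4.13 against 1.94 TPM) and EFNA4 (4.10 against 1.98 TPM) passed 2-fold in SW620-TET2CD.

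Between the lines at day 15, EPHB3 stood at 9.07 TPM in SW620-TET2CD and 18.3 TPM in SW620 inside the colonies, and at 7.11 and 14.7 TPM outside. Inside cells had EPHA4 at 1.94 TPM in SW620-TET2CD against 3.20 TPM in SW620, the order of the single-cell libraries, but outside cells had 4.13 against 1.97 TPM, the opposite order. EPHB2 was lower in SW620-TET2CD in both positions, at 36.3 against 47.8 TPM inside and 23.1 against 43.8 TPM outside, and so was EPHA1, at 3.64 against 9.07 TPM and 3.13 against 5.19 TPM, both opposite to the single-cell libraries of day 15. Set against those libraries, 4 of the 10 (EPHA1, EPHA2, EPHB2 and EPHB3) had the opposite order of the lines in both positions, 4 (EPHB4, EFNA4, EFNB1 and EFNB2) the same order in both, and EPHA4 and EFNA1 the same order in 1. For EPHB3 the single-cell ratio of SW620-TET2CD over SW620 was only 1.05 at day 15. At days 6, 9 and 12 it was 0.759, 0.773 and 0.869, the order seen in bulk. EFNA4 outside was 4.10 against 0.63 TPM. At 2-fold, none of the 10 was higher and 1 was lower inside (3.13% and 4.02% of genes, 7.15% in all), and 1 was higher and 1 lower outside (5.78% and 3.43%, 9.21% in all). With a pseudocount of 0.1, 2 were lower inside, and 2 were higher and 2 lower outside, with EPHB3 added in both positions and EPHA4 outside. Reads were counted without strand, so EPHA1, which overlaps 823 bases of ZYX (30.0 to 68.0 TPM), and EPHB4, which overlaps 704 bases of SLC12A9 (6.97 to 31.6 TPM), may hold reads of those neighbors. The same limit holds for EFNA4, which overlaps 5806 bases of EFNA4-EFNA3 on its own strand (up to 0.51 TPM). It also holds for EFNB2, which overlaps 30484 bases of a long noncoding RNA gene (0.04 to 8.43 TPM).

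Contrasts inside each library ask which cells of 1 culture carry the family, and their values were not part of the rule that chose the genes, although the splits were set with earlier results of these data known. Each kept cell with at least 2000 UMIs was thinned to 2000 UMIs, the cells of a library were split at the library median of the summed UMIs of a gene list, and the summed counts of the cells above the median were compared with those of the rest over the 8 libraries (edgeR, library as a block, p adjusted over all genes). The lists held 13 WNT target genes, 8 genes driven by MAPK signalling, 15 hypoxia response genes and 16 cell cycle genes, none of them a family gene. A side of a split is a range of a score and not a cell type, and 38.9% to 54.9% of cells lay within 1 UMI of the median for WNT, 50.1% to 76.7% for MAPK, 35.4% to 91.1% for hypoxia and 28.5% to 89.2% for the cell cycle. Of the 10 genes, 8 passed the filter on low counts, and EPHA1 and EPHB4 did not.

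Cells high in WNT target genes had more of both crypt receptors and less of their ligand EFNB2. EPHB2 read 71.2, 92.3, 54.4 and 23.3 CPM in the high cells of SW620 at days 6, 9, 12 and 15 and 64.9, 79.2, 37.6 and 17.0 CPM in the rest. In SW620-TET2CD it read 75.5, 85.5, 68.4 and 42.5 CPM against 61.0, 76.2, 52.9 and 26.6 CPM. The high side was above the other in 8 of 8 libraries, and EPHB2 rose by 0.25 on the log2 scale (SE 0.05, adjusted p = 0.0028). EPHB3 read 17.0, 20.5, 16.8 and 10.8 CPM against 10.8, 16.5, 9.87 and 6.57 CPM in SW620, and 10.7, 14.1, 13.1 and 10.4 CPM against 9.70, 12.1, 8.94 and 6.33 CPM in SW620-TET2CD. It too was higher in 8 of 8 libraries and rose by 0.39 (SE 0.09, adjusted p = 0.0048). Both calls were lost only where cells were thinned to 1000 UMIs among the alternatives run on all days (adjusted p 0.227 and 0.445), and EPHB3 missed the threshold in the early days alone (adjusted p 0.0527).

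EFNB2 read 146, 118, 70.9 and 94.0 CPM in the WNT target-high cells of SW620 against 156, 139, 94.8 and 112 CPM in the rest, and 178, 154, 113 and 124 CPM against 179, 161, 135 and 132 CPM in SW620-TET2CD. It was lower on the high side in 8 of 8 libraries and fell by 0.23 on the log2 scale (SE 0.04, adjusted p = 0.000706). EPHA2 fell by 0.29 (SE 0.08, adjusted p = 0.0134) and EFNB1 fell by 0.32 (SE 0.10, adjusted p = 0.0310), each lower in 6 of 8 libraries. The EPHA2 call was lost without SW620 day 12 (adjusted p 0.0634), SW620 day 15 (0.116) or SW620-TET2CD day 15 (0.0775). The EFNB1 call was lost without any of 6 libraries, SW620 days 6, 9 and 15 and SW620-TET2CD days 6, 12 and 15, with adjusted p from 0.0608 to 0.0952, at 1000 UMIs (0.276), among cells low in cell cycle genes (0.113) and in the early (0.130) or the late (0.138) libraries alone. In all, 2 of the 8 genes rose and 3 fell with WNT targets, where 2.80% and 8.39% of genes did (11.2% in all), and 2 were higher and 1 was lower in 8 of 8 libraries, where 5.81% and 2.21% were.

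Cells high in MAPK output genes had less EPHB2 and more EPHA2, EPHA4, EFNB1 and EFNB2. EPHA2 read 37.2, 19.4, 48.2 and 75.4 CPM in the high cells of SW620 and 29.9, 12.3, 29.3 and 53.7 CPM in the rest. In SW620-TET2CD it read 33.6, 29.3, 45.5 and 78.3 CPM against 28.0, 18.3, 29.7 and 48.3 CPM. It was higher in 8 of 8 libraries and rose by 0.49 (SE 0.06, adjusted p = 2.59e-08). EFNB1 (0.49, SE 0.09, adjusted p = 0.000115), EPHA4 (0.55, SE 0.11, adjusted p = 0.000297) and EFNB2 (0.32, SE 0.04, adjusted p = 1.62e-07) also rose and were higher in 8 of 8 libraries. EPHB2 was lower in 8 of 8 libraries, with 17.3 against 21.6 CPM in SW620 and 27.3 against 37.5 CPM in SW620-TET2CD at day 15, and fell by 0.20 (SE 0.05, adjusted p = 0.0023).

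Thus 4 of the 8 genes rose and 1 fell with MAPK output, where 6.76% and 5.76% of genes did (12.5% in all), and 4 were higher and 1 was lower in 8 of 8 libraries, where 6.15% and 2.65% were. The median change over the 8 was 0.30, beside -0.0034 over all genes tested. With cells thinned to 1000 UMIs the EPHA4 (adjusted p 0.161) and EPHB2 (0.103) calls were lost, and EPHB2 also missed the threshold among cells low in cell cycle genes (0.0840). In the early libraries alone EPHA4 (adjusted p 0.217), EPHB2 (0.0908) and EFNB1 (0.0818) did not pass. EFNA1 (-0.02, adjusted p = 0.897), EPHB3 (-0.16, adjusted p = 0.301) and EFNA4 (0.28, adjusted p = 0.416) did not pass.

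**Figure D3:**
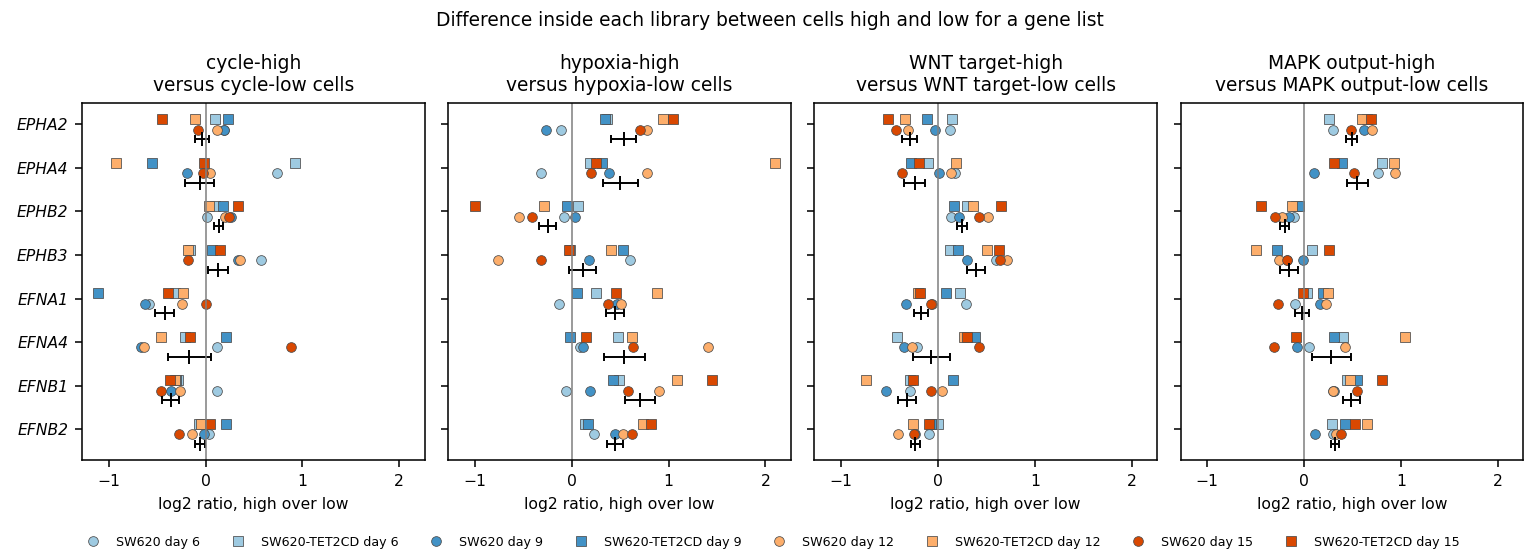
Log2 ratio of high over low cells for the 8 genes that passed the filter, in each of the 4 splits, with 1 point per library. Points are colored by day, circles are SW620 and squares SW620-TET2CD, and a black bar gives the fitted log2 change and its standard error. In the WNT split the EPHB2 and EPHB3 points lie above 0 and the EFNB2 points below 0 in 8 of 8 libraries, and in the MAPK split EPHA2, EPHA4, EFNB1 and EFNB2 lie above 0 in 8 of 8.

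Cells high in hypoxia response genes had more of the ligands EFNA1, EFNB1 and EFNB2 and of EPHA2. EFNB2 read 165, 164, 104 and 132 CPM in the high cells of SW620 against 140, 120, 71.5 and 85.6 CPM in the rest, and 189, 169, 167 and 175 CPM against 172, 150, 100.3 and 99.1 CPM in SW620-TET2CD. It was higher in 8 of 8 libraries and rose by 0.45 (SE 0.08, adjusted p = 0.0062). EFNB1 rose by 0.71 (SE 0.16, adjusted p = 0.0138) and EFNA1 by 0.45 (SE 0.10, adjusted p = 0.0119), each higher in 7 of 8 libraries, and the EFNA1 call was lost at 1000 UMIs (adjusted p 0.0624). EPHA2 rose by 0.54 (SE 0.13, adjusted p = 0.0198) and was higher in 6 of 8 libraries. The EPHA2 call was lost without SW620 day 12 (adjusted p 0.0655), SW620-TET2CD day 12 (0.0655) or SW620 day 15 (0.0666).

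EPHA4 (0.50, adjusted p = 0.0728), EFNA4 (0.54, adjusted p = 0.0866) and EPHB2 (-0.25, adjusted p = 0.0778) did not pass. EPHA4 passed in 4 of 12 alternatives, at 1000 UMIs, with no thinning (adjusted p 0.00626), among cells low in cell cycle genes (0.0415) and without SW620 day 6, and EFNA4 passed with no thinning (0.0231). In all, 4 of the 8 rose and none fell with hypoxia genes, where 8.49% and 6.41% of genes did (14.9% in all), and 1 was higher and none was lower in 8 of 8 libraries, where 4.90% and 4.56% were. The median over the 8 was 0.48, beside -0.01 over all genes tested.

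For 4 of the 8 genes the hypoxia contrast differed between late and early days. At day 15, EPHA2 read 81.8 against 49.9 CPM in SW620 and 87.6 against 41.9 CPM in SW620-TET2CD, whereas at day 6 it read 32.0 against 34.6 CPM and 35.7 against 27.5 CPM. EPHB2 read 16.4 against 22.1 CPM and 20.5 against 41.9 CPM at day 15, and 65.8 against 69.6 CPM and 68.5 against 65.6 CPM at day 6. The difference of the log2 changes, late minus early days, was tested in 1 model over the 8 libraries, a test added after the split values had been seen. It was 0.81 for EPHA2 (adjusted p = 0.00018), 0.51 for EFNB2 (adjusted p = 0.000203), -0.51 for EPHB2 (adjusted p = 0.00336) and 0.80 for EFNB1 (adjusted p = 0.0119), where 18.8% of all genes passed. EFNA1 (0.38, adjusted p = 0.140), EPHA4 (0.36, adjusted p = 0.517), EFNA4 (0.65, adjusted p = 0.277) and EPHB3 (-0.49, adjusted p = 0.134) did not pass this test.

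The first 3 held in 9 of 9 alternatives, and the EFNB1 difference was lost at 1000 UMIs, without SW620 day 6 and without SW620-TET2CD day 15 (adjusted p up to 0.232). In the late libraries alone EPHA2 rose by 0.91 (adjusted p = 5.38e-08), EFNB1 by 1.05 (adjusted p = 7.46e-06), EFNB2 by 0.71 (adjusted p = 1.53e-07), EFNA1 by 0.56 (adjusted p = 9.14e-05), EPHA4 by 0.57 (adjusted p = 0.0135) and EFNA4 by 0.91 (adjusted p = 0.0336), and EPHB2 fell by 0.55 (adjusted p = 0.000331). In the early libraries alone EFNB2 rose by 0.22 (adjusted p = 0.00604), and EPHA2 (0.13), EFNB1 (0.27), EFNA1 (0.20), EPHA4 (0.22), EFNA4 (0.28) and EPHB2 (-0.02) did not pass. Over all genes tested, 4144 of 12020 passed in the late libraries alone and 205 of 12121 in the early ones. The split itself was coarser early, with 1.32 to 2.76 hypoxia UMIs per cell on the high side and at most 0.403 on the other, against 6.27 to 6.83 and 1.37 to 1.53 late. Late hypoxia-high cells also had more MAPK output UMIs and fewer WNT target and cell cycle UMIs in 4 of 4 libraries, so the splits share cells. Among cells low in cell cycle genes alone, the changes with hypoxia genes were 0.62 for EPHA2 (adjusted p = 0.00724), 0.50 for EFNB2 (adjusted p = 0.00133), 0.51 for EFNA1 (adjusted p = 0.00334) and 0.71 for EFNB1 (adjusted p = 0.0135). EPHA4 was 0.59 there (adjusted p = 0.0415), and EPHB2 (-0.25, adjusted p = 0.0853) and EPHB3 (0.14, adjusted p = 0.627) did not pass. These cells lay at or below the library median, and in the early libraries they still held 1.91 to 2.81 cell cycle UMIs on average. The parts of the WNT, MAPK, hypoxia and cell cycle splits in each other were not tested.

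With WNT targets, the EPHA2 change differed between late and early days by -0.53 (adjusted p = 0.000843), where 7.65% of genes passed, and this was lost at 1000 UMIs (adjusted p 0.560). With the cell cycle it differed by -0.39 (adjusted p = 0.0324), where 6.76% passed, and this was lost in 6 of 9 alternatives, at 1000 UMIs and without SW620 day 6, SW620-TET2CD day 6, SW620 day 9, SW620-TET2CD day 9 or SW620-TET2CD day 15 (adjusted p up to 0.293). With MAPK output no member passed, where 4.08% of genes did. None of the 4 splits had a gene whose change differed between SW620-TET2CD and SW620 at an adjusted p of 0.05 in edgeR (0% of genes), with 138 to 445 genes under an unadjusted p of 0.05.

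Cells high in cell cycle genes had less of the ligands EFNA1 and EFNB1 and more EPHB2, while EFNB2, EFNA4, EPHA2, EPHA4 and EPHB3 did not pass. EFNA1 read 5.22, 7.52, 36.5 and 39.6 CPM in cycling-high cells of SW620 against 8.30, 12.1, 43.4 and 39.5 CPM in the rest, and 3.42, 4.55, 24.8 and 31.1 CPM against 4.48, 11.004, 29.3 and 40.9 CPM in SW620-TET2CD. It was lower in 7 of 8 libraries and fell by 0.42 (SE 0.10, adjusted p = 0.0045), a call kept in all 11 alternatives run on 7 or 8 libraries. The change was -0.81 in the early and -0.26 in the late libraries alone, and their difference (0.53, adjusted p = 0.0721) did not pass. EFNB1 fell by 0.36 (SE 0.09, adjusted p = 0.0076), lower in 7 of 8, and was lost in DESeq2 (adjusted p 0.0818), at 1000 UMIs (0.723) and in the early libraries alone (0.183). EPHB2 rose by 0.14 (SE 0.05, adjusted p = 0.0356) and was higher in 8 of 8 libraries, a call lost in 8 of 11 alternatives, among them leaving out SW620 days 9, 12 or 15 or SW620-TET2CD days 6, 9 or 15 (adjusted p 0.0541 to 0.116). In all 1 of the 8 rose and 2 fell, where 13.3% and 12.1% of genes did (25.4% in all), and 1 was higher and none was lower in 8 of 8 libraries, where 12.2% and 5.27% were.

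Of the 12 other genes of the family, 6 had enough UMIs to test over the 8 libraries, and 5 of these rose and none fell from early to late days, in a fit where 29.4% of the 16526 genes tested rose and 28.6% fell (58.0% in all). The ligands EFNB3 (2.45, adjusted p = 2.49e-05), EFNA3 (2.30, adjusted p = 1.99e-05) and EFNA2 (1.55, adjusted p = 0.000101) and the kinase-inactive receptors EPHB6 (1.27, adjusted p = 0.00425) and EPHA10 (0.84, adjusted p = 0.0063) each passed in all 16 alternatives. Levels of EFNB3, EFNA3 and EPHA10 were low, at most 5.19, 4.28 and 1.38 CPM. EPHB6 read 54.1, 89.0, 156 and 291 CPM in SW620 and 56.7, 84.9, 99.9 and 201 CPM in SW620-TET2CD. In the bulk libraries EPHB6 was not higher at day 15, with 95.01 TPM at day 6 and 82.2 and 62.0 TPM inside and outside in SW620. EFNA2 stood at 10.04 TPM at day 6 and at 15.2 TPM inside and 9.45 TPM outside. EFNB3, EFNA3 and EPHA10 were higher at day 15 in both positions. EFNA2 read 5.35, 7.04, 17.8 and 23.0 CPM in SW620 and 3.38, 5.10, 10.2 and 15.2 CPM in SW620-TET2CD. It was lower in SW620-TET2CD at each day, by -0.74 (SE 0.10, adjusted p = 0.00112), a call lost only without the day as a block, and it was the only one of the 6 past the threshold between the lines, where 1.85% of all genes were lower in SW620-TET2CD. EFNA5 (-0.44, adjusted p = 0.382) did not pass. EPHA5 and EPHA7 were at 0 in all 8 libraries, where 3 UMIs correspond to at most 0.0623 CPM, and EPHA3, EPHA6, EPHA8 and EPHB1 had at most 61 UMIs each in all.

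Inside the libraries, EPHB6 rose with MAPK output (0.22, SE 0.04, adjusted p = 0.000103) in 8 of 8 libraries, though not in the early libraries alone (adjusted p 0.200), and of the other family genes tested in the 4 splits no further one passed. With hypoxia genes EPHB6 was 0.245 (adjusted p = 0.0584) and passed in 4 of 12 alternatives. In the late libraries alone it rose with them by 0.475 (adjusted p = 1.54e-05). Its change with hypoxia genes was larger late than early by 0.50 (adjusted p = 0.000299), and its changes with the cell cycle (-0.45, adjusted p = 4.42e-05) and with WNT targets (-0.24, adjusted p = 0.0337) were lower late. With the cell cycle EPHB6 was 0.27 in the early libraries alone (adjusted p = 0.000199) and -0.15 in the late ones (adjusted p = 0.0519), and with WNT targets 0.15 (adjusted p = 0.0281) and -0.11 (adjusted p = 0.227). The first 2 differences held in 9 of 9 alternatives, and the one with WNT targets was lost at 1000 UMIs and without SW620 day 6, 9 or 15 (adjusted p up to 0.244).

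**Figure D4:**
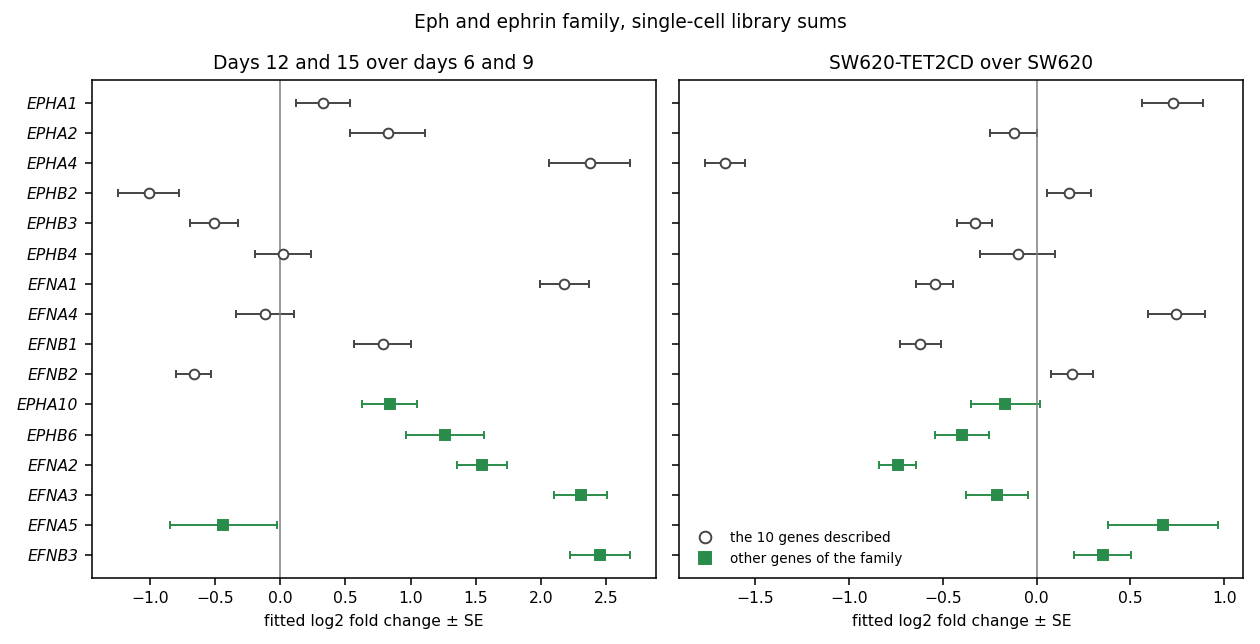
Fitted log2 change and standard error of each family gene with enough UMIs, for late over early days (left) and SW620-TET2CD over SW620 (right), from the sums of the 8 single-cell libraries. Open circles are the 10 genes described and filled squares the other family genes, of which EFNB3, EFNA3, EFNA2, EPHB6 and EPHA10 lie right of 0 in the left panel.

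Of 36 genes that carry Eph and ephrin signals inside the cell, 34 were tested, and 9 were higher and 4 lower at the late days, 13 in all beside the 58.0% of all genes that passed in this fit. NGEF (1.20, adjusted p = 0.000125) and KALRN (0.94, adjusted p = 0.00208), exchange factors that act downstream of the receptors, and RASA1 (0.78, adjusted p = 0.00142), a Ras-inactivating protein that docks on EphB receptors, rose. CFL1 (-1.20, adjusted p = 0.000153), the actin-severing protein cofilin, fell. Between the lines 1 passed, PAK1 (0.53, adjusted p = 0.007), a kinase downstream of Rac, where 2.37% of all genes were higher in SW620-TET2CD (4.21% in either direction), and the call was lost without SW620 day 9 (adjusted p 0.0716) or SW620-TET2CD day 9 (0.0643) and without the day as a block (0.708). None of the 34 passed between positions in bulk, where 2 were under an unadjusted p of 0.05. With no filter on low counts KALRN (adjusted p 0.0259) passed there, as did the family genes EFNA2 (0.00285), EPHB6 (0.0148) and EPHA10 (0.0408), which did not pass with the filter (adjusted p 0.772 for each of the 4).

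Of the 34 partners, 2 passed with the cell cycle, 2 with hypoxia genes, 5 with WNT targets and 4 with MAPK output, beside 25.4%, 14.9%, 11.2% and 12.5% of all genes. With the cell cycle 1 rose and 1 fell, CFL1 (0.14, adjusted p = 0.0148) and PAK1 (-0.28, adjusted p = 0.00142), and the CFL1 call was lost without SW620-TET2CD day 15 (adjusted p 0.0602), at 1000 UMIs (0.0504) and in the early libraries alone, where the change was 0.012 (adjusted p 0.741). PAK1 missed the threshold in the late libraries alone (adjusted p 0.0794). Hypoxia genes went with RASA1 (0.34, adjusted p = 0.0138) and SDCBP (0.29, adjusted p = 0.0167), the syntenin adaptor that binds B-type ephrins. The RASA1 call was lost without SW620 day 12 (adjusted p 0.0522), and the SDCBP call without SW620 day 12 (0.0502), SW620-TET2CD day 12 (0.0540) or SW620 day 15 (0.0572), and neither passed in the early libraries alone (0.158 and 0.390). With WNT targets 1 partner rose, ROCK2 (0.21, adjusted p = 0.00162), and 4 fell, among them SDCBP (-0.25, adjusted p = 0.00616), RAC1 (-0.17, adjusted p = 0.000327) and CDC42 (-0.11, adjusted p = 0.0295). SDCBP lost this call without SW620 day 15 (adjusted p 0.0567) and CDC42 without any of 7 libraries, all but SW620-TET2CD day 12 (up to 0.167), in DESeq2 (0.0691) and among cells low in cell cycle genes (0.0666). MAPK output went with RASA1 (0.23, adjusted p = 0.0124), ADAM10 (0.20, adjusted p = 0.00805), the protease that cuts ephrins, the adaptor CRK (0.18, adjusted p = 0.00826) and ROCK2 (0.11, adjusted p = 0.04996), and ROCK2 lost the call without any of 7 libraries, all but SW620-TET2CD day 6 (up to 0.162). In DESeq2 the RASA1 (adjusted p 0.101), ADAM10 (0.0540), CRK (0.0615) and ROCK2 (0.181) calls were lost. At 1000 UMIs RASA1 (0.135), ADAM10 (0.361) and CRK (0.0745) were lost, among cells low in cell cycle genes RASA1 (0.172) and ADAM10 (0.254), and between the upper and the lower tertile of cells RASA1 (0.0827), ADAM10 (0.0532) and ROCK2 (0.0572). In the early libraries alone none of these 4 passed (adjusted p 0.106 to 0.629), nor did RASA1 in the late ones (0.0830).

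The genes whose levels ran most like a member over the 8 libraries were found by Pearson's r of log2(CPM + 1) among genes with a mean of at least 8 CPM, as a description in which all points share library depth and stage. EFNA1 ran with GADD45A (r = 0.998), KLK6 (0.996) and FGD3 (0.996), and EFNB1 with IGFBP4 (0.993), SPNS2 (0.985) and CLDN1 (0.985). EPHB2 ran with PHF23 (0.990), ITFG2 (0.988) and HOXA7 (0.984), and EPHB3 with SPHK2 (0.951), CBX6 (0.940) and NME4 (0.936). EPHA4 ran with ARHGEF16 (0.987), TRPV2 (0.984) and TRIM15 (0.983), EPHA2 with RNF114 (0.976), CLDND1 (0.970) and KLHL7 (0.970), and EFNB2 with KATNA1 (0.991), YKT6 (0.991) and CYB5B (0.979). No gene was named for 2 members. Leaving out 1 library kept 7 to 17 of these 21 pairs among the 3 nearest, so the names depend on single libraries.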

How the data were processed

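Cells of SW620 and SW620-TET2CD were profiled with 10x Genomics 3′ v3.1 libraries, and the authors deposited UMI counts per gene and cell made with Cell Ranger 4.0 on GRCh38, per the labels. For bulk RNA, the authors deposited RSEM expected counts and TPM made with Bowtie and RSEM. The submitters' notes name mm10 for the bulk files, yet all 60624 rows used carry human Ensembl identifiers, so the bulk build is not settled and 45 duplicate rows of the Y copies of shared regions were left out. Gene positions and promoters are those of GRCh38.p14 and RefSeq, and no value was taken from coordinates.

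Barcodes were kept where they held 200 to 4500 genes and 1000 to 20000 UMIs with a mitochondrial share of 10% or less (48282 of 67056) and their UMIs summed per library. Doublets were not called, and leaving out the 8% of cells with the most UMIs is one of the alternatives. Sums were tested with edgeR 4.0.16 in R 4.3.3 (quasi-likelihood, TMM, filterByExpr, Benjamini-Hochberg over all genes tested, two-sided, threshold 0.05), with the line or day as a covariate. Expected counts were rounded to whole numbers for the bulk fit. The SE given with an edgeR change is its size over the square root of the quasi-likelihood F statistic. That statistic draws on the dispersion of other genes, so the SE is not a spread between libraries. In the splits inside libraries each kept cell with at least 2000 UMIs was thinned to 2000, which left out 18 to 89 cells per library. Exact Poisson intervals and the floor of 3 counts cover counting error only. Bulk levels were compared on log2(TPM + 1), with 1 library per condition and no test of single libraries.

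Alternatives were DESeq2 1.42.0, other scaling factors, filters and cell limits, no block, other thinning, subsets of cells and leaving out each library. The days pair the lines because both lines were harvested on the same days, which is the block of the line comparison. On simulated counts with known changes, the line fit over 16526 genes recovered 90% of genes changed by 1 on the log2 scale and the hypoxia split over 12117 genes recovered 93%, the bulk fit over 17722 genes 61%. Unchanged genes called were 15, 10 and 9. The simulated counts had 1 mean per gene and the dispersion trend, with no other differences between lines or libraries. These shares therefore need not hold for the real libraries. Genes named are the 10 and the 12 other family genes, up to 4 signalling partners per comparison with the largest change past the threshold, and the 3 most alike genes per member. The 10 genes, the gene lists and the splits were chosen with earlier results of these data known.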

Additional observations from a re-analysis of the deposited data

Results flagged for a closer look

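A sample lying far from the others by Dixon's ratio was found in 3 of 52 sets of libraries or bulk samples examined, and about 1 in 20 sets is picked out by chance alone. EPHA4 in the hypoxia split had its highest log2 ratio in SW620-TET2CD day 12, at 2.10, with the next library at 0.77. EFNA4 in the hypoxia split stood highest in SW620 day 12, at 1.41, with the next at 0.63. EFNB1 in the cell cycle split stood highest in SW620 day 6, at 0.12, with the next at -0.26. EPHA4 and EFNA4 were not called in the hypoxia split.

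In the TPM of the bulk libraries 3 of the 10 genes had opposite orders of outside and inside cells in the lines, with 1 library per condition, and the difference was not tested. The log2 ratio of outside over inside was 0.80 for EPHA4 in SW620-TET2CD and -0.50 in SW620, 0.78 for EFNA4 in SW620-TET2CD and -0.30 in SW620, and -0.78 for EFNB1 in SW620-TET2CD and 0.07 in SW620. The opposite order of EPHA4 rests on TPM, since in CPM of expected counts its log2 ratio, with 1 added to both values as for TPM, was 1.17 in SW620-TET2CD and 0.22 in SW620, higher outside in both, and its fitted change was 0.79, between 0.41 and 1.14 in 8 alternatives. EFNA4 (0.71 and -0.30) and EFNB1 (-0.86 and 0.08) kept opposite orders in counts.

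In 9 cases, 6 of them among the 10 genes and 3 for EPHB6, the change of a family gene inside the libraries differed between late and early days by the test of the difference itself (edgeR, 8 libraries). With hypoxia genes the late minus early differences were 0.81 for EPHA2, 0.51 for EFNB2, 0.80 for EFNB1 and -0.51 for EPHB2. With WNT targets and with the cell cycle the differences for EPHA2 were -0.53 and -0.39. For EPHB6 the differences were 0.50 with hypoxia genes, -0.45 with the cell cycle and -0.24 with WNT targets.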

How the results depend on the processing

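The counts of genes past the threshold moved by over 1.5 times in these settings. The line comparison called 696 genes, 1489 with no filter on low counts, 46 with no replicate block (the day being the block that pairs the lines) and 416 to 680 leaving out a library, with 416 without SW620 day 9 and 426 without SW620-TET2CD day 9. Of the 10 genes, 0 were 2-fold apart in TPM between positions in SW620-TET2CD, and 1 inside and 2 outside between the lines, against 2, 2 and 4 with a pseudocount of 0.1. The bulk fit called 0 genes, 22 in DESeq2 and 472 with no filter. The cycle split called 3118 genes, 2024 in DESeq2, 1848 at 1000 UMIs and 5625 with no thinning. The hypoxia split called 1806, 1082 at 1000 UMIs, 4583 with no thinning, 205 in early and 4144 in late libraries alone, and 369 to 2158 leaving out a library, with 369, 450, 427 and 769 without SW620 day 12, SW620-TET2CD day 12, SW620 day 15 and SW620-TET2CD day 15. The WNT split called 1368, 734 in DESeq2, 659 at 1000 UMIs, 4053 with no thinning and 832 to 1149 leaving out a library (889 without SW620 day 12, 832 without SW620 day 15). The MAPK split called 1515, 775 in DESeq2, 885 at 1000 UMIs, 4991 with no thinning and 556 in early libraries alone. Late minus early differences were called for 493 genes with MAPK output, 936 with WNT targets and 2282 with hypoxia, and at 1000 UMIs for 122, 222 and 1157. Leaving out a library gave 277 to 526, 553 to 1390 and 1404 to 2434. CPM of expected counts in place of TPM, chosen after seeing the data, turned the side of 3 of 70 bulk ratios of the 10 genes. The 21 pairs of like genes fell to between 7 and 17.

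In the splits within libraries, changes of sign were found only for values that had not passed the threshold, and for EPHA2 with WNT targets, which was 0.039 in the early libraries alone. In the cycle split the early libraries alone gave 0.15 for EPHA2, 0.18 for EPHA4 and 0.0074 for EFNB2, EPHB3 was -0.031 at 1000 UMIs and -0.014 in late libraries, and EPHB6 was -0.0096 and -0.15 there. EPHB3 with hypoxia was -0.032 at 1000 UMIs, -0.093 with no thinning and -0.19 in late libraries. With WNT targets EFNA1 was 0.0082 at 1000 UMIs, EFNA4 0.23 in late libraries, and EPHB6 0.0014 in DESeq2, 0.033 with no thinning, 0.016 in upper against lower tertiles and 0.15 in early libraries. With MAPK output EPHB3 was 0.065 at 1000 UMIs, and EFNA1 was 0.0068 in DESeq2, 0.0076 with no thinning and 0.077 in early libraries. Leaving out a library took EPHA2 from -0.067 to 0.048 and EPHA4 from -0.13 to 0.0022 with the cycle, EFNA4 from -0.14 to 0.093 and EPHB6 from -0.036 to 0.037 with WNT targets and EFNA1 from -0.065 to 0.076 with MAPK output. The cause of these moves was not tested, except that fewer UMIs, fewer libraries and more genes tested are part of the settings themselves. For the 10 genes and the other family genes and partners named for a call, 1145 values kept their direction and side or, without a test, moved by less than the SD between libraries, 107 lost and 19 gained a call, 28 tested values changed sign (19 of the 10 genes and 9 of EPHB6), and 31 values without a test moved by at least that SD (in the bulk fit, between the log2 ratios of both lines), 24 of them in the bulk fit on leaving out a library, 3 there under other settings and 4 in late versus early. The comparison of the upper with the lower tertile was not run for the cycle and hypoxia splits, since only 4 libraries had cells on both sides.

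Each condition had 1 library. EPHA1, EPHB4 and EFNA4 had too few UMIs for small differences to be detectable. The days pair the lines, and the block of the bulk fit and of the stage fit changed no call of the family genes tested.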
